A study of Drosophila melanogaster with 4 samples.

Results

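Serotonin (5-HT) is a neurotransmitter that, in the fly brain, takes part in the control of sleep, feeding, learning and the daily rhythm. It acts almost entirely through receptors of the G protein coupled family. 5-HT1A couples to inhibitory G proteins and lowers cyclic AMP, 5-HT7 couples to stimulatory G proteins and raises cyclic AMP, and 5-HT2A is of the type that couples to Gq and phospholipase C. These 3 receptor genes, chosen by their current symbol through the Entrez identifiers 37196, 43669 and 40575, are described here over 4 arrays of Drosophila melanogaster heads. They are 3 of 2406 named genes, and their 3 clones are 3 of 4208 clones, that had a value on at least 3 arrays. Each receptor had 1 clone, spotted as an adjacent pair, so 6 of 27648 spots. Of the 5 serotonin receptor genes listed, 5-HT1B and 5-HT2B were matched to no clone here.

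Every array was an NF-NF array (NM-NM in the labels). A pool of heads of untreated, unmated male Oregon-R flies, 3 to 4 days old at the start and kept on normal food (NF) in batches of 30, was labelled with Cy5 and hybridized with a second such pool labelled with Cy3. In the study these arrays were the control for arrays of flies treated with the convulsant pentylenetetrazole, which were not analysed here. Both pools of an array were untreated, so the comparison asks how far each transcript differed between untreated pools. By the labels both pools spent 12 h in the treatment vessel, except that the Cy3 pool of replicate 1 spent 6 h there. The labels give Cy5 and Cy3 in 1 orientation on all 4 arrays, whereas the methods of the study speak of dye-swapped slides, and the sources used here do not say which slides those were. The sign of a log2 ratio is therefore tied only to the labels: above 0, the pool labelled Cy5 had the higher value. With dye and pool tied in this way, a difference between the pools cannot be told apart from a difference between the dyes. Whether an array differs from another in a receptor because of more cells that express it or more RNA per cell cannot be told apart in whole heads.

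Values were deposited for 7966 to 8429 spots on replicates 1 to 3 and for 2240 on replicate 4, and the array medians were 0.00 to 0.14 on the former and -0.70 on the latter. Each array's median was subtracted, and "centred" below means this log2 ratio. The SD of the centred values over clones was 0.34, 0.23, 0.38 and 0.37 on replicates 1 to 4. Duplicate spots of a clone differed by a median of 0.10 to 0.13. Ratios between 2 head pools cannot check the label of head tissue, since a value shows only that a spot passed the filters. Values on at least 3 arrays were present for 4208 of 13824 clones, for 4 of 8 fat body markers and for 2 of 8 gut markers. Of 12 neuronal markers 2 had a value on at least 3 arrays (nSyb and Gad1), of 12 photoreceptor markers 3 (trpl, inaD and Arr1) and of 8 glial markers 3 (Gs2, loco and alrm). The defining markers elav, repo and ninaE were matched to no clone.

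5-HT7 lay above the array median on 4 of 4 arrays. Its centred log2 ratio was 0.21 on replicate 1, 0.06 on replicate 2, 0.26 on replicate 3 and 1.49 on replicate 4. Replicate 4 stood far above the other 3 arrays, which lay between 0.06 and 0.26. On that array both spots were high, at 1.31 and 1.67, and 99.1% of 958 clones were lower. The value corresponds to a Cy5 to Cy3 ratio of 2.81 after centring, against ratios of 1.05 to 1.19 on replicates 1 to 3. The mean was 0.50 ± 0.66 (SD, n = 4), and the limma test across all clones gave an adjusted p of 0.155. Of the 726 clones with a value on all 4 arrays, 12.4% were above the median on every one of them, and 97.0% had a smaller SD than 5-HT7. As deposited, before centring, 5-HT7 was at 0.35, 0.07, 0.33 and 0.79, and its mean of 0.39 ± 0.30 had a limma adjusted p of 0.153. Since replicate 4 lay low as a whole, only 2.07% of clones on 4 arrays were above 0 on each of them as deposited. Without replicate 4 the mean of 5-HT7 was 0.18, and without replicate 1 it was 0.60 with a limma adjusted p of 0.00847, in a fit that called 2.0% of clones. That fit draws the spread of a clone toward that of all clones, and the values of 5-HT7 in it were 0.06, 0.26 and 1.49.

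5-HT2A lay below the array median on each of the 3 arrays on which it had a value. Its centred log2 ratio was -0.46 on replicate 1, -0.65 on replicate 2 and -0.34 on replicate 3, and replicate 4 had no value. The values were all low, and the duplicate spots differed by only 0.01, 0.09 and 0.02. Its place among the clones varied more: 11.2% of clones were lower on replicate 1, 0.595% on replicate 2 and 19% on replicate 3. The mean was -0.48 ± 0.16 (SD, n = 3), a Cy5 to Cy3 ratio of 0.716, and 4.04% of clones had a lower mean. The limma adjusted p was 0.0624, so 5-HT2A was not called, and limma called 0.0% of the 4208 clones, although 1272 (30.2%) had an unadjusted p under 0.05. That number was 458 without replicate 1, 1493 without replicate 2, 654 without replicate 3 and 1454 without replicate 4. With the signs of replicates 2 and 3, 2 and 4, or 3 and 4 turned it was 12, 204 and 17. Dye swaps may need such a turn. A value below the median on 3 of 3 arrays was common, being found for 27.3% of the 3482 clones measured on 3 arrays. Other forms of the test put 5-HT2A past the threshold. When replicate 4 was left out, which changes no value of 5-HT2A but changes the spread estimated over all clones, the limma adjusted p was 0.0294 and 380 clones (9.03%) were called. A one-class Significance Analysis of Microarrays (SAM), rebuilt here on centred clone values and not the study's own run, gave 5-HT2A a false discovery rate of 0.0412 and called 246 clones (5.85%). On values as deposited, a form added after seeing the data, the rebuilt SAM gave it 0.107 and called 160 clones.

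5-HT1A lay on both sides of the array median. Its centred log2 ratio was 0.21 on replicate 1, -0.15 on replicate 2, 0.06 on replicate 3 and -0.29 on replicate 4. It was highest on replicate 1, the array with unequal times in the vessel, and lowest on replicate 4. The duplicate spots of replicate 4, at -0.49 and -0.10, were also the farthest apart. The mean was -0.04 ± 0.22 (SD, n = 4), with a limma adjusted p of 0.796, and the SD was close to the median SD of 0.23 of clones on 4 arrays. As deposited the mean was -0.16 ± 0.59.

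**Figure D1:**
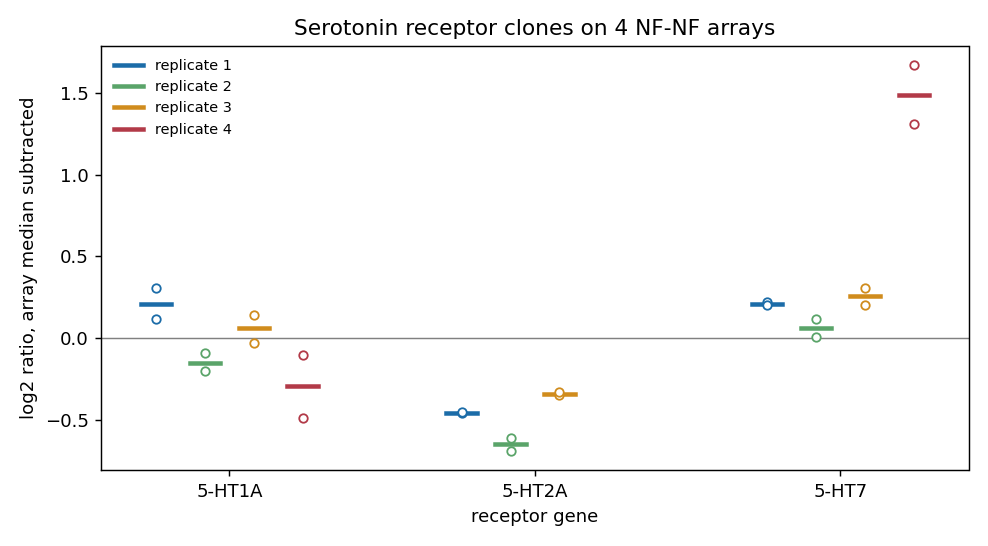
Log2 ratio of the Cy5 over the Cy3 pool after subtraction of the array median, for each receptor clone on each array. Open circles are the duplicate spots and bars their mean. 5-HT2A lies between -0.65 and -0.34 on replicates 1 to 3, 5-HT1A on both sides of 0, and 5-HT7 at 1.49 on replicate 4 and between 0.06 and 0.26 elsewhere.

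The receptors were then compared with each other array by array, in 3 pairs. 5-HT7 exceeded 5-HT2A by 0.66, 0.72 and 0.59 on replicates 1 to 3, a mean of 0.66 ± 0.06 (SD, n = 3). This was the steadiest of the differences, and its SD was below that of either receptor alone. 5-HT1A exceeded 5-HT2A by 0.67, 0.50 and 0.39, a mean of 0.52 ± 0.14. 5-HT7 and 5-HT1A did not separate on replicate 1, where they differed by -0.01, and 5-HT7 was higher by 0.21, 0.20 and 1.78 on the other arrays. The mean was 0.55 ± 0.83 (SD, n = 4). Without replicate 4 that mean was 0.13. The exact sign-flip permutation test over arrays (two-sided) gave p = 0.25 for each pair, and 0.25 after adjustment over the 3 pairs. With 3 arrays 0.25 is the smallest p this exact test allows, and with 4 arrays the smallest is 2 in 16, so no pair could pass. With the array signs as deposited, 5-HT2A had the lowest log2 ratio of the receptors on replicates 1 to 3, and the difference between 5-HT1A and 5-HT7 was within their spread. That order depends on the unsettled dye orientation: with the signs of replicates 2 and 3 turned, the mean of 5-HT7 minus 5-HT2A was -0.21 and that of 5-HT1A minus 5-HT2A -0.08.

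Each receptor was set beside the clones that stand near it in the table. Over 2240 pairs of adjacent clones not named for 1 gene, the means differed by a median of 0.11. Pairs of distant clones were not compared, so whether nearby clones are more alike than others was not tested. Over the 135 genes with 2 measured clones, the means of the 2 clones of the same gene differed by a median of 0.20 and on replicate 4 by 0.35. The receptors have 1 clone each, so no second clone could be set against these values. How rows map to places on the slide is not stated in the sources used here.

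The clone next to 5-HT7, of the gene Dlg5, which encodes a scaffold protein of cell junctions, was at 0.33, 0.15, 0.33 and 1.23 on replicates 1 to 4. The lowest and the highest arrays were the same as for 5-HT7, replicates 2 and 4. ine, a neurotransmitter transporter family gene placed 6 clones away, was at 0.94 on replicate 4. Of 11 clones within 10 clones of 5-HT7 that had a value on replicate 4, 9 were above the median, with a range of -0.14 to 1.23 and a median of 0.56, and all 11 were below 5-HT7. CG9992 and Taf3 were at 0.56 and 0.36 there, and Nckx30C, CG7183 and Atg101 were at 0.05, -0.04 and -0.14. Tet had no value on that array. On replicates 1 to 3 the neighbours of 5-HT7 lay on both sides of it.

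When the median of 49 neighbouring rows was subtracted from each spot in place of the array median, 5-HT7 was at 0.18, -0.01, 0.09 and 0.82 on replicates 1 to 4. Replicate 4 remained the highest, and 98.2% of clones were lower there. The mean was 0.27 ± 0.37 (SD, n = 4) with a limma adjusted p of 0.293. In this form limma called 14 of 4123 clones (0.34%), and no receptor was among them.

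5-HT2A had few neighbours. Of the 20 clones within 10 clones of it, 4 had values, and all stood on 1 side of it. Hcf, a cofactor of transcription, was at -0.76, -0.51 and -0.57 on replicates 1 to 3, and Ero1L, an oxidase of the endoplasmic reticulum, at -0.49, -0.24 and -0.81. Nadk1a was at -0.30, -0.38 and -0.39, and Hel25E, an RNA helicase gene, at -0.43, 0.05 and -0.19. On replicates 1 and 3 all 4 neighbours were below the median, as 5-HT2A was, and on replicate 2 it was lower than all of them. With the neighbouring rows subtracted, 5-HT2A was at 0.03, -0.34 and 0.19, a mean of -0.04 ± 0.28 (SD, n = 3) with a limma adjusted p of 0.867. The low value of 5-HT2A was thus kept on replicate 2 alone, and the subtracted medians rested on 8 spot values on each of replicates 1 to 3. On replicate 4 the window around 5-HT2A held 0 values, against 25 around 5-HT7 and 18 around 5-HT1A, so its neighbours also lacked values there.

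5-HT1A shared its side of the median with most of its neighbours on replicates 1, 3 and 4. Among neighbouring clones with values on at least 3 arrays, 7 of 8 were below the median on replicate 4, as it was. On replicate 1, 7 of 8 were above. A further clone within 10 clones, with a value on replicate 4 alone, was at 0.13 there. The adjacent clone, of CG14015, was at 0.32, -0.14, 0.21 and -0.54, with the signs of 5-HT1A on each array. That pattern of signs was found for 5.79% of clones on 4 arrays. insv and Cul5 were at -0.23 and -0.26 on replicate 4, Jhbp1 at -0.62 and Cyp301a1, a cytochrome P450 gene, at -0.63. With neighbouring rows subtracted, 5-HT1A was at 0.01, -0.18, -0.14 and -0.03, a mean of -0.08 ± 0.09 (SD, n = 4, limma adjusted p = 0.484), and 13.6% of clones had a smaller SD.

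**Figure D2:**
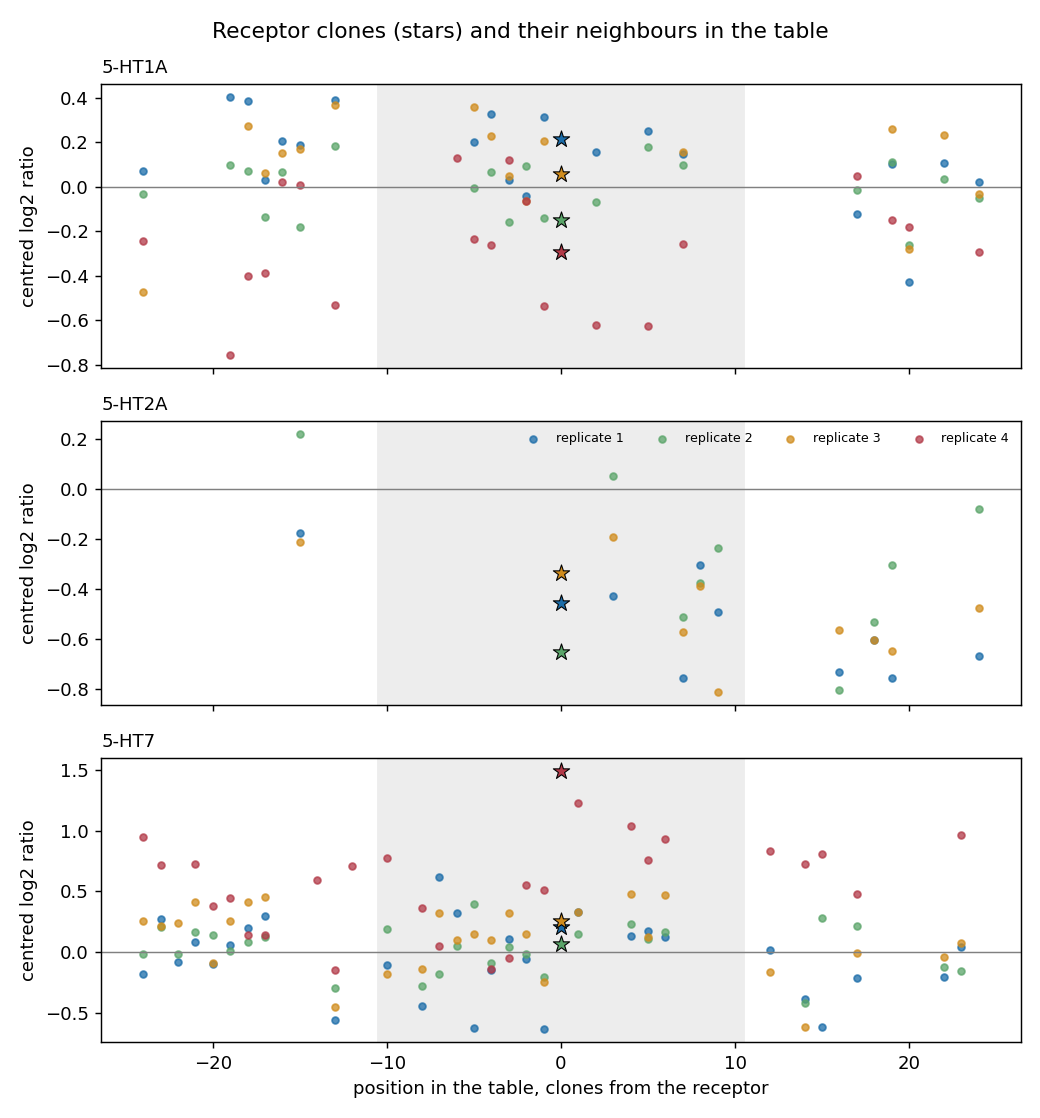
Centred log2 ratio of clones against their position in the table, counted in clones from each receptor (stars at 0), with 1 colour per array and the 10 clones on either side shaded. The red points of replicate 4 lie mostly above 0 around 5-HT7 and mostly below 0 around 5-HT1A, and the few valued clones after 5-HT2A lie mostly below 0.

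The differences between receptors changed in the same step. 5-HT7 minus 5-HT2A became 0.15, 0.34 and -0.10, a mean of 0.13 ± 0.22, and 5-HT1A minus 5-HT2A became -0.02, 0.17 and -0.33, a mean of -0.06 ± 0.25. 5-HT7 minus 5-HT1A became 0.17, 0.17, 0.23 and 0.85, above 0 on 4 of 4 arrays, with a mean of 0.35 ± 0.33. The exact sign-flip permutation p of that pair was 2 in 16, the smallest that 4 arrays allow, and 0.375 after adjustment over the 3 pairs. For the other pairs the exact p was 0.5 and 0.75. The gap of both receptors over 5-HT2A was thus mostly shared with the neighbouring rows. For 5-HT7 minus 5-HT1A the subtraction raised the value on replicate 1 from -0.01 to 0.17 and lowered that on replicate 4 from 1.78 to 0.85.

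**Figure D3:**
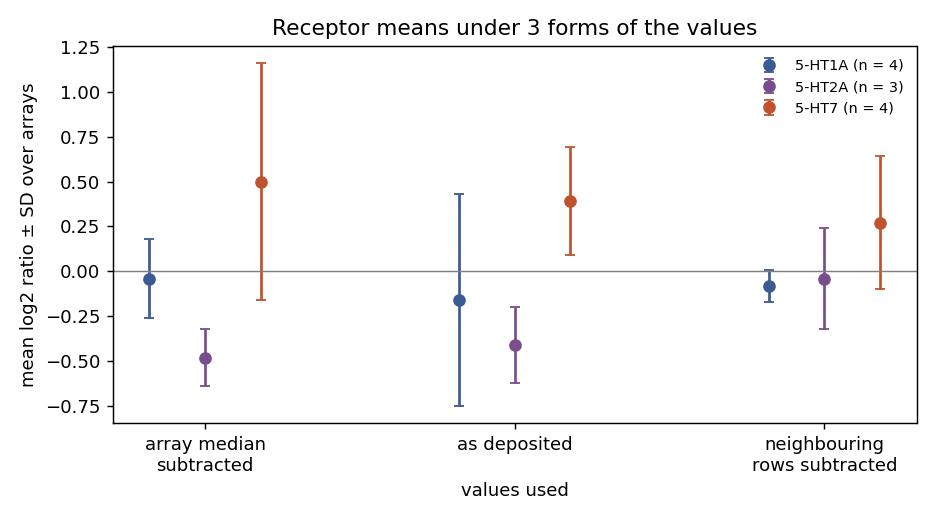
Mean log2 ratio of each receptor with the SD over arrays as error bars (n = 4 for 5-HT1A and 5-HT7, n = 3 for 5-HT2A), for values with the array median subtracted, as deposited, and with the median of neighbouring rows subtracted. 5-HT2A moves from -0.48 to -0.04 and 5-HT7 from 0.50 to 0.27 between the first form and the last.

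The genes with the most similar values over the arrays were sought among named clones, by the root mean square difference of the centred values. For 5-HT7 (4 arrays, 435 candidates) Dlg5 was nearest, at 0.155, followed by CG6685, at 0.274, and spin, at 0.29, and the median over candidates was 0.82. For 5-HT2A (3 arrays, 2407 candidates) lost, CG8668 and CG5467 were nearest, at 0.016, 0.05 and 0.066, and the median was 0.53. For 5-HT1A (4 arrays, 435 candidates) dpr18, Dpp10 and DIP-kappa were nearest, at 0.097, 0.103 and 0.103, and the median was 0.33. The search for 5-HT2A had fewer arrays and more candidates, so its distances cannot be set against those of the other receptors. Dlg5 stood next to its receptor in the table, and the others, apart from Dpp10, in distant rows.

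Genes of serotonin synthesis and of the receptors' signalling were described in the same way. Apart from the measured receptors, 21 of 72 listed genes had values, 16 with a mean below the array median and 5 above. The median of these means was -0.11. Over all clones the mean was below 0 for 50.5% and the median was 0.00. The tally rests on the array signs as deposited. In a count added after seeing the data, 10 of the 21 genes were below 0 with the signs of replicates 2 and 3 turned (52.1% of all clones), 15 with 2 and 4 turned (50.8%) and 13 with 3 and 4 turned (54.6%). No listed gene was called by limma, the lowest adjusted p being 0.0555.

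Of the synthesis genes, Pu, which makes the pterin cofactor of tryptophan hydroxylase, was at -0.31, -0.24 and -0.25 on replicates 1 to 3. Ddc, the decarboxylase that makes serotonin and dopamine, was at -0.24, 0.16 and -0.15. speck, an arylalkylamine N-acetyltransferase that acetylates amines, was at -0.61, 0.12 and -0.43. Pu was steady, while Ddc and speck were low on replicates 1 and 3 and above the median on replicate 2. These were 3 of 8 listed genes, and the transporter SerT and the neuronal tryptophan hydroxylase Trhn were matched to no clone.

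In the cyclic AMP branch, 4 of 15 genes were measured, and with the array signs as deposited all 4 had means below the median, against 1, 4 and 3 with the signs of replicates 2 and 3, 2 and 4, or 3 and 4 turned. Ac76E, an adenylyl cyclase, was at -1.03, -0.24 and -1.53 on replicates 1 to 3, while the second cyclase, Ac78C, was at -0.02, -0.17 and -0.19. Pde8, a phosphodiesterase that breaks down cyclic nucleotides, was at -1.38 and -0.83 on replicates 1 and 2 and -0.12 on replicate 4. Pka-R1, a regulatory subunit of protein kinase A, was at -0.40, -0.27, -0.55 and -0.04. The limma adjusted p of the 4 clones lay between 0.0698 and 0.388, and the 2 lowest genes, Ac76E and Pde8, also had the widest spread. Their means of -0.93 and -0.78 became 0.25 and -0.22 with replicates 2 and 3 turned, -0.77 and -0.14 with 2 and 4 turned, and 0.08 and -0.70 with 3 and 4 turned. With neighbouring rows subtracted the means of Ac76E and Pde8 were -0.46 and -0.44, and that of Pka-R1 was -0.07.

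Among G proteins and receptor regulators 6 of 18 genes were measured. Galphas, the stimulatory subunit to which receptors such as 5-HT7 couple, was at -0.77, -0.40 and -0.60, a mean of -0.59 ± 0.19 (SD, n = 3, limma adjusted p = 0.0555), but -0.17 with neighbouring rows subtracted and 0.08 with the signs of replicates 2 and 3 turned. Galphaq, the subunit upstream of phospholipase C, was at -0.06 ± 0.07 (n = 4). cta, Gbeta5, loco and the arrestin gene Arr1 had means between -0.17 and 0.03.

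Of 14 genes of the phospholipase C branch 5 were measured. Pkc53E, a protein kinase C, was at -0.57, -0.38 and -0.17. sl, a phospholipase C gamma, inaC, the photoreceptor protein kinase C, and Pkc98E had means of -0.10, -0.11 and 0.04. Dgkepsilon, a diacylglycerol kinase, had 2 clones that disagreed: 1 was at 0.20 and 0.64 on replicates 1 and 2 and 1.54 on replicate 4, with a mean of 0.79, and the other was at -0.56, 0.19 and -0.05, with a mean of -0.14.

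The other amine receptors gave 3 of 15 genes. DopEcR, a receptor for dopamine and ecdysteroids, had a clone at -0.17, -0.43, -0.24 and -0.04 and a second at 0.33, -0.33 and 0.03. The octopamine receptor genes Octbeta1R and Octbeta2R had means of 0.14 ± 0.19 and -0.22 ± 0.16 (SD, n = 3 each). None of these means lay as far from 0 as that of 5-HT2A or 5-HT7. After subtraction of neighbouring rows, 16 of the 21 pathway genes, not necessarily the same ones, were below 0, with a median of -0.08. In that form neither the share of all clones below 0 nor a tally with turned signs was counted. The count therefore cannot be read as a low pathway.

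**Figure D4:**
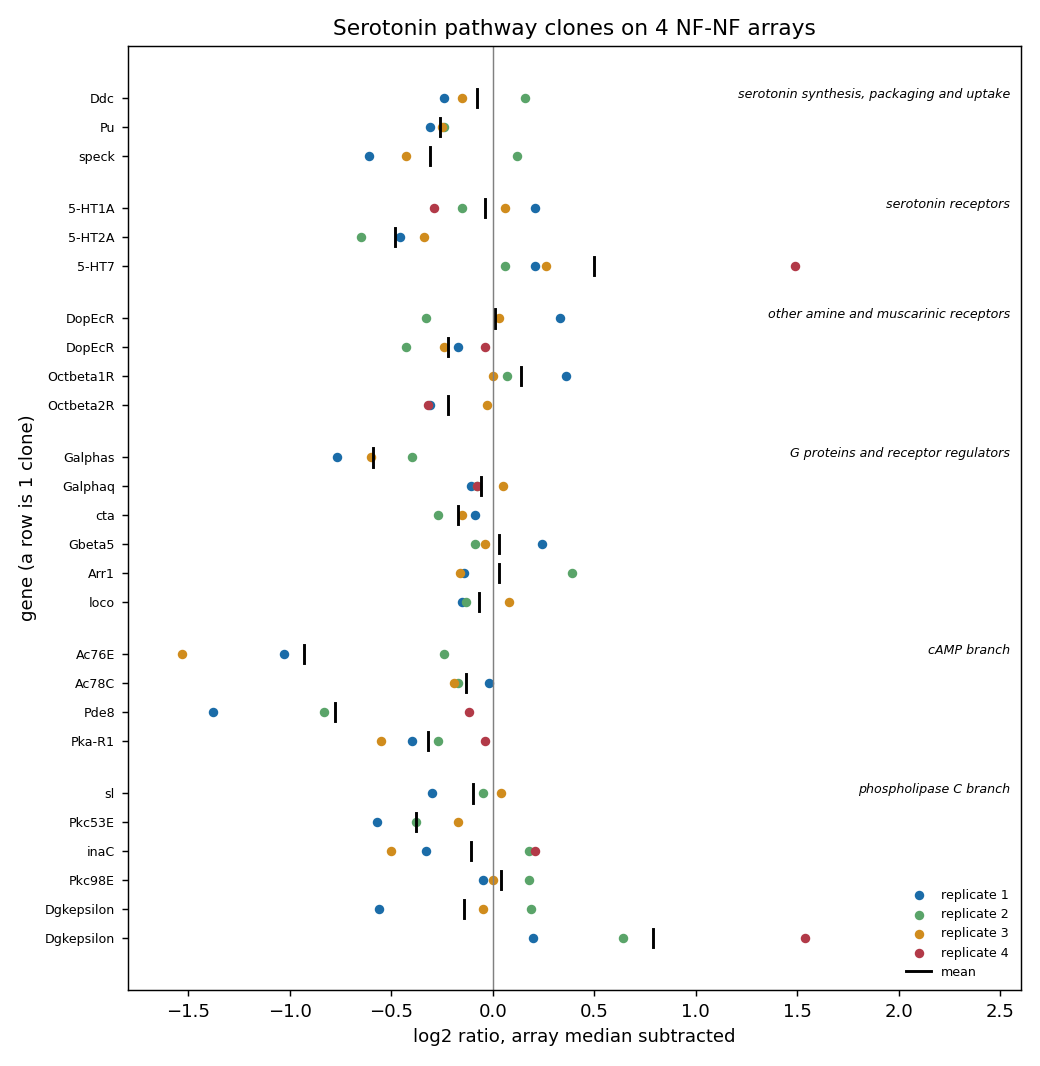
Centred log2 ratios of each measured clone of the serotonin pathway lists, with 1 point per array and a black bar for the mean. 5-HT7 and 1 clone of Dgkepsilon reach 1.49 and 1.54 on replicate 4, and Ac76E and Pde8 have the lowest means with the array signs as deposited (Ac76E is at 0.25 with replicates 2 and 3 turned and 0.08 with 3 and 4 turned).

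Fat body markers did not share 1 pattern with 5-HT7: on replicate 4 Yp3 was at 2.08 and apolpp at -0.17. Of 8 listed genes 4 were measured, and the mean of their clones was 0.39, 0.20, 0.33 and 0.95 on replicates 1 to 4, the last resting on 1 clone each of Yp3 and apolpp. The yolk protein gene Yp3 was at 1.49, 0.34, 1.31 and 2.08, and the second yolk protein gene, Yp2, at 0.89, 0.30 and 0.36 on replicates 1 to 3. The others lay closer to the median: Lsp2, a larval serum protein gene, was at -0.05, 0.12 and 0.09, and the clones of apolpp, the lipophorin gene, were at -0.42, 0.10 and -0.11 and at 0.05, 0.15, -0.01 and -0.17. The high mean of the list was thus that of the yolk protein genes. Yp3 was therefore also high on replicates 1 and 3, where 5-HT7 was at 0.21 and 0.26. Glial markers had means between -0.26 and -0.07, the neuronal genes nSyb and Gad1 were at 0.22 and -0.25, and photoreceptor genes lay between 0.00 and 0.24. The part of these tissues in the values of the receptors was not tested.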

How the data were processed

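Per the labels and the methods, slides were scanned and quantified with GenePix Pro 6.0, and the authors normalized the ratio of each slide in Acuity 4.0. Spots under 3% saturated pixels, with a region R2 of at least 0.6 and a signal-to-noise ratio of at least 3 were kept. What was deposited is the log2 ratio of Cy5 over Cy3 signal after that step. Their centring was not common to the arrays and the orientation of dye-swapped slides is unknown. Clone sequences, receptor sequences and scanner intensities were not used here.

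All adjacent rows were averaged in pairs into 13824 clones (of the 7558 pairs named on both rows, 0 had differing names). The 4208 with values on at least 3 arrays were kept, and each array's median over these clones was then subtracted. Names came from the platform annotation, updated by Entrez identifier through RefSeq (Release 6) for 97.9% of 15218 probes. Of the kept clones 2551 had 1 gene name and 1657 had several or none. Each clone was tested against 0 with limma 3.58.1 in R 4.3.3 (intercept, eBayes, two-sided, Benjamini-Hochberg at 0.05), after a check on simulated data. For neighbours, the median of a window of 49 rows without the clone's own was subtracted from each spot where at least 3 values were present. SAM was rebuilt on centred clone values, which may differ from the study's own run, with 16 sign patterns and an exchangeability constant at percentile 5. Windows of 19 and 99 rows, single duplicate spots, other filters, turned signs and left-out replicates were the alternatives. A replicate was left out with clones kept on at least 2 of the other arrays. Named were the receptors, the measured members of 6 pathway and 6 marker lists, named clones within 10 clones of a receptor, and the 3 nearest patterns. The members, lists and tests were chosen with earlier results of these data known. The number of arrays limits the precision. The labels describe separate pools, and p-values rest on the spread between these arrays. In limma the spread of a clone is drawn toward that of all clones, so its p does not reflect the clone's own spread alone.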

Additional observations from a re-analysis of the deposited data

Results flagged for a closer look

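Of 11 sets of 4 arrays examined, 4 had 1 array far from the other 3. Chance gives about 1 in 20, but the sets share the arrays and are not independent. In all 4 sets the array was replicate 4. 5-HT7 had a centred log2 ratio of 1.49 there and 0.06 to 0.26 on the others. 5-HT7 minus 5-HT1A was 1.78 there and -0.01 to 0.21 on the others. The median of the deposited log2 ratios over the clones kept was -0.70 there and 0.00 to 0.14 on the others. The number of spots with a value was 2240 there and 7966 to 8429 on the others. The value of 5-HT7 on replicate 4 less that of its neighbouring rows, 0.82, was not far enough from the others to be marked.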

How the results depend on the processing

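No paired analysis was possible because the arrays form 1 group with no second group to pair, while the receptors were compared within arrays. The count of clones called by limma, 0 as analysed and as deposited, was 14, 1 and 0 with windows of 49, 19 and 99 rows subtracted, 1 with clones on at least 2 arrays, and 246 with the rebuilt SAM (160 on values as deposited, added after seeing the data). With a replicate left out it was 0 to 380, with 380 without replicate 4 and 84 without replicate 1. With replicates left out, the mean of 5-HT1A was -0.13 to 0.04, that of 5-HT2A -0.55 to -0.40 and that of 5-HT7 0.18 to 0.65. 5-HT2A, at -0.48, passed without replicate 4 and in the rebuilt SAM, and 5-HT7 passed without replicate 1. Differences between receptors kept their sign with any replicate left out. With the signs of a pair of replicates turned, as dye swaps may need, directions changed. With replicates 2 and 3 turned, 5-HT1A was at 0.00, 5-HT2A at 0.18, 5-HT7 minus 5-HT2A at -0.21 and 5-HT1A minus 5-HT2A at -0.08. With 2 and 4 turned, 5-HT1A was at 0.18, 5-HT7 at -0.27 and 5-HT7 minus 5-HT1A at -0.45. With 3 and 4 turned, these were 0.08, -0.37 and -0.44. 5-HT1A minus 5-HT2A was -0.06 and -0.03 with windows of 49 and 99 rows subtracted. The cause of these changes was not tested. 5-HT2A had no value with a window of 19 rows or on all 4 arrays. Dim or saturated spots had been removed before deposit, so how signal limits these values is unknown.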

Other observations

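Markers of body tissue were also looked at. The maltase genes Mal-A2 and Mal-A3, of 8 gut genes listed, had means of 0.47 ± 0.35 and 0.30 ± 0.18 (SD, n = 3 each). Both were above the median on each array with a value, and neither was called (limma adjusted p 0.095 and 0.122). The share of all clones above the median on 3 of 3 arrays was not counted, while 27.3% were below it on 3 of 3. CG9997, the 1 measured gene of 9 listed for testis and male accessory gland, was at 2.43 on replicate 3, -0.81 on replicate 4, and 0.28 and 0.00 on replicates 1 and 2. On replicate 4 it lay on the other side of the median from 5-HT7.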
